A study of Mus musculus with 8 samples.

Results

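The imprinted genes described here are 34 mouse genes that are expressed mainly from a single parental allele in at least some tissues, chosen by symbol and grouped by the cluster they lie in and by the allele that is used. All 34 were found among the 48709 genes of the count files, and 33 of them had enough counts to be tested. RNA of whole cortex tissue at P1 (postnatal day 1) was sequenced from 4 control and 4 dcKO_Nex-Cre samples, with 1 library per sample. The dcKO_Nex-Cre mutants carried floxed alleles of BAF155 (*Smarcc1*) and BAF170 (*Smarcc2*), core subunits of the BAF chromatin remodeling complex, together with Nex-Cre. This Cre is active in postmitotic principal neurons of the cortex, whereas interneurons, progenitors, glia and vessels in the same tissue keep both genes. Control animals were heterozygous for both floxed alleles (BAF155fl/+, BAF170fl/+) and Cre negative, and all animals were of a C57BL6/J background. The sample labels name the groups only as control and double knockout, and the Cre line and the alleles are those of the study's methods. Nothing states that each sample was a separate animal, so that p-values measure the spread between these samples.

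Imprinted genes are marked in the germ line by DNA methylation that differs between egg and sperm, and are then expressed mainly from the maternal or the paternal copy. Most lie in clusters, where an imprinting control region and often a long noncoding RNA set the expression of several neighbours. Many are active in the developing brain, where they act in growth, neuronal differentiation and synaptic protein turnover. The counts add up both alleles, so that a level can be compared between the groups but the allele it came from cannot be read.

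The library totals ranged from 17958641 to 35191912 counts. *Smarcc2* fell from 462 to 263 CPM (counts per 1000000, group means, n = 4 each) with a log2 fold change of -0.81 and an adjusted p of 0.00267, and *Smarcc1* fell from 148 to 102 CPM with a log2 fold change of -0.53 and an adjusted p of 0.0348, in edgeR's quasi-likelihood test with Benjamini-Hochberg adjustment over all 16287 genes tested. The mutant libraries, dcKO_Nex-Cre replicate 4 included, were below all control libraries in both. The adjusted p of *Smarcc1* passed the threshold of 0.05 in 2 of 8 leave-one-library-out fits, where it ranged from 0.0207 to 0.132. Control replicate 2 and dcKO_Nex-Cre replicate 4 stood apart by their mitochondrial share, at 6.87% and 6.15% of the counts against 2.33% to 4.24% in the other 6 libraries. *Xist* was above 100 CPM in control replicate 2 and dcKO_Nex-Cre replicate 2 and at most 8.43 CPM in the others. dcKO_Nex-Cre replicates 3 and 4 had lane tag 8 in their file names and all other libraries lane tag 2.

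Of the 33 imprinted genes tested, 1 rose in the dcKO_Nex-Cre cortex and 0 fell at an adjusted p under 0.05. The gene that rose was *Plagl1*. Over all genes tested, 0.375% were called higher, 0.51% lower and 0.884% in either direction. At an unadjusted p under 0.05, 4 imprinted genes were higher (*Plagl1*, *Grb10*, *Sgce* and *Ppp1r9a*) and 1 was lower (*Gnas*), where 6.59% and 7.05% of all genes were. The groups did not overlap for *Plagl1* and *Sgce*, both higher, and for *Gnas*, which was lower, while 3.99% of all genes were higher and 4.01% lower without overlap. DESeq2's Wald test called 2 imprinted genes higher (*Plagl1* and *Grb10*) and 0 lower, with 3.16% of 15648 genes called in either direction.

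The median log2 fold change of the 33 genes was 0.0040, beside 0.0043 over all genes tested, with 17 genes above 0 and 16 below. The 17 genes listed as expressed from the paternal allele had a median of -0.017 with 8 above 0. The 11 genes tested that are listed as maternally expressed had a median of 0.059 with 7 above 0. The 5 genes listed with an allele that depends on isoform or tissue had a median of -0.037 with 2 above 0. *Ube3a* and *Trappc9* are listed as maternal for their use in neurons, and the allele used in this tissue was not measured. *Plagl1*, which passed the test, is paternally expressed.

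**Figure D1:**
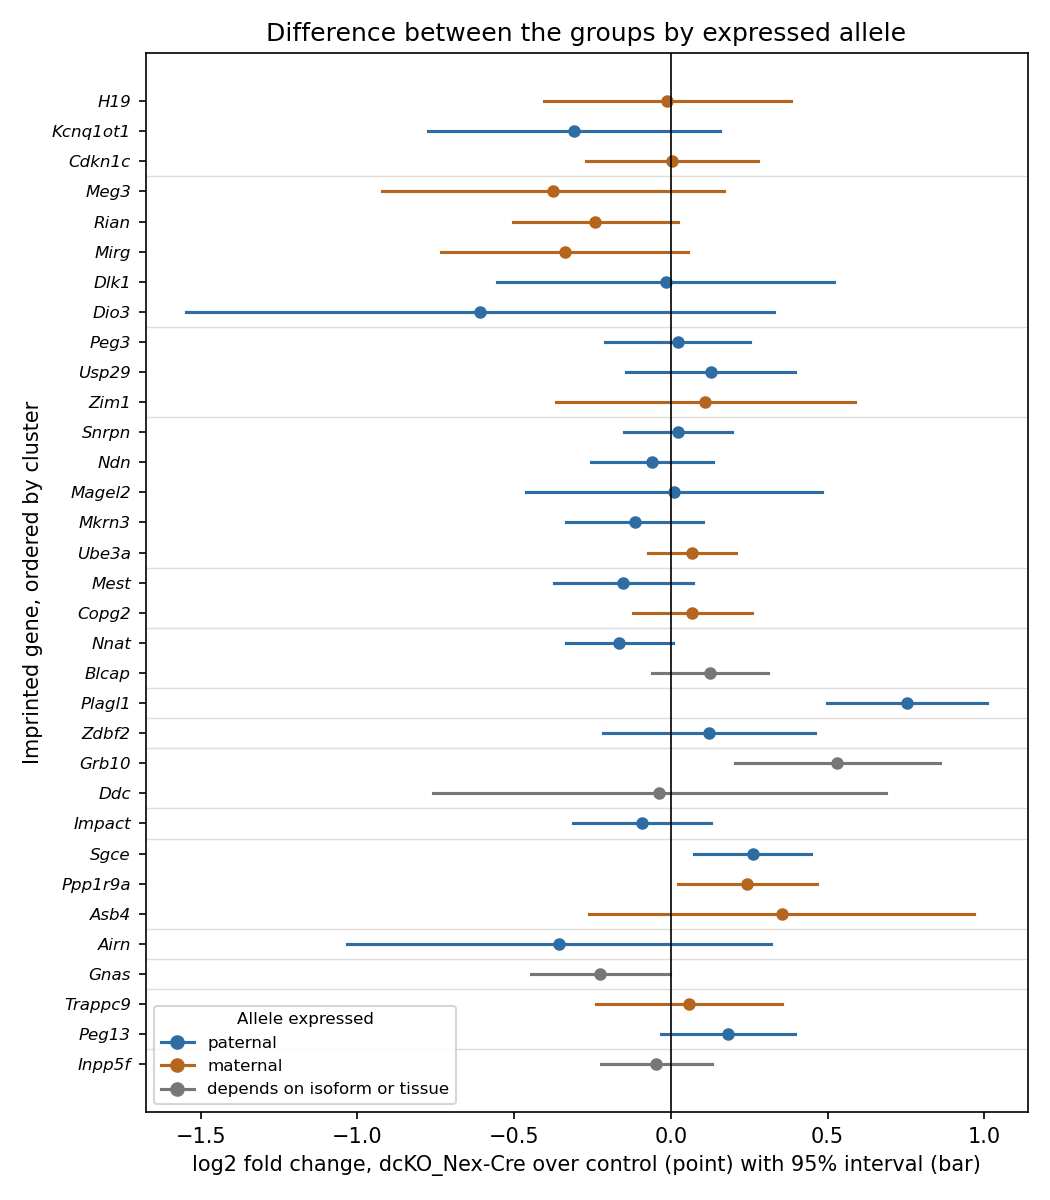
Log2 fold change of 33 imprinted genes in the dcKO_Nex-Cre cortex over the control (x axis), one gene per line in cluster order (y axis), with the 95% interval from edgeR as a bar and the expressed allele as the colour. *Plagl1* lies farthest to the right at 0.75, and most other intervals cross 0.

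Levels differed widely between the genes. Per kilobase of exon, the highest in the control was *Nnat* at 1093 CPM per kb, followed by *Ndn* at 158, *Snrpn* at 105, *Inpp5f* at 70.9, *Peg13* at 65.8 and *Meg3* at 61.2 CPM per kb. At the low end were *Kcnq1ot1* at 0.092, *Airn* at 0.38, *Dlk1* at 0.59 and *Ddc* at 0.63 CPM per kb. *Phlda2*, which limits growth of the placenta, had at most 1 count per library and was not tested. A count of 0 allows up to 3 counts per library, so that a difference in *Phlda2* was not detectable at this depth.

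**Figure D2:**
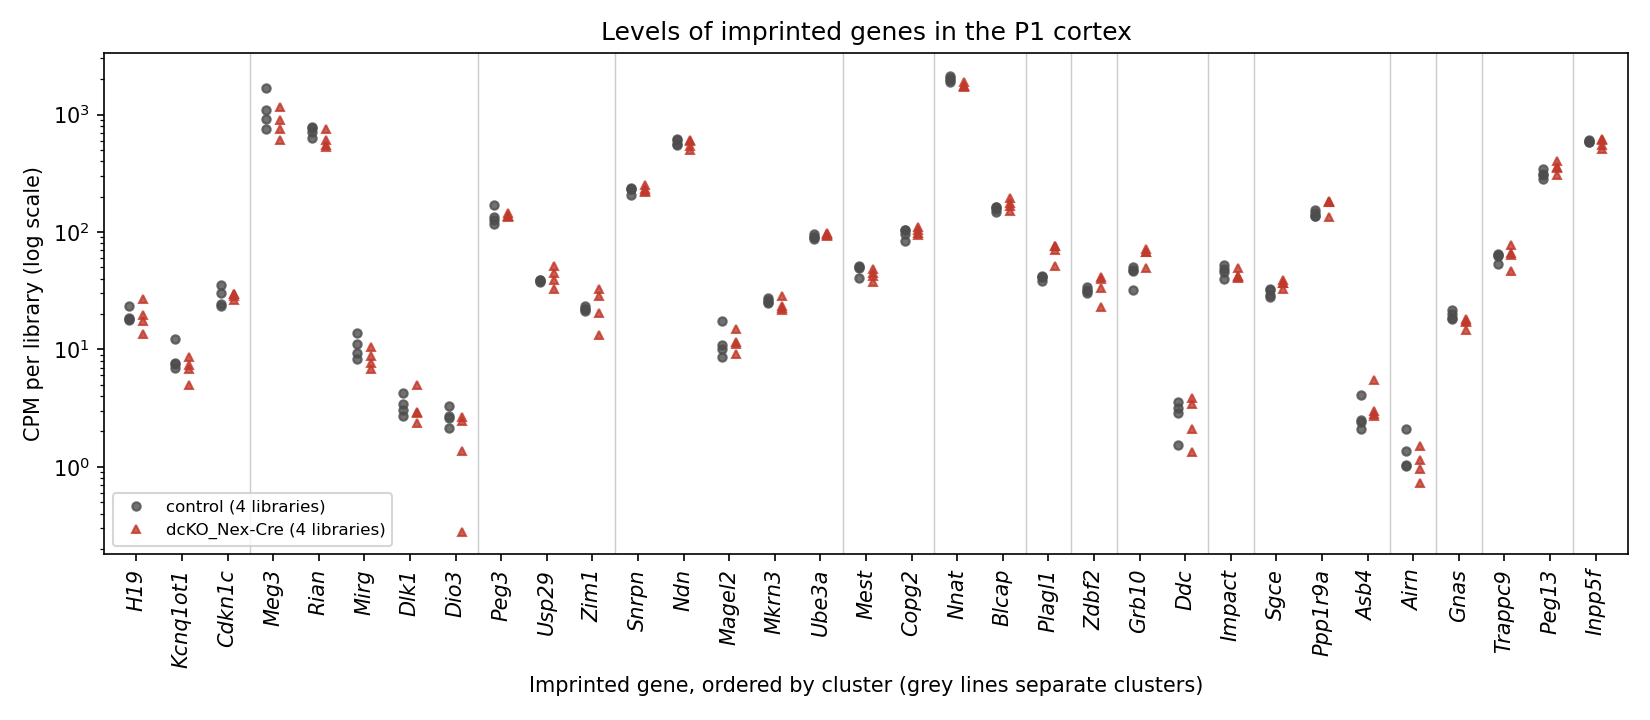
CPM of 33 imprinted genes in each library (y axis, log scale), in cluster order (x axis), with circles for the 4 control and triangles for the 4 dcKO_Nex-Cre libraries. The libraries of the 2 groups lie on top of each other for most genes, and the groups separate upward for *Plagl1*.

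*Plagl1* encodes Zac1, a zinc finger transcription factor that restrains proliferation and belongs to a network of imprinted growth genes. It was at 41.2, 38.3, 42.0 and 40.97 CPM in control replicates 1 to 4. It was at 69.9, 76.4, 76.0 and 51.5 CPM in dcKO_Nex-Cre replicates 1 to 4. The control libraries were nearly level, all dcKO_Nex-Cre libraries were above them, and dcKO_Nex-Cre replicate 4 was the nearest to the control. *Plagl1* rose 1.69-fold (95% interval 1.41 to 2.01), from 40.6 ± 1.60 to 68.5 ± 11.7 CPM (SD, n = 4), or by 0.75 on the log2 scale (standard error 0.12), with an adjusted p of 0.0177 from edgeR. The two-sided exact permutation test over the 70 regroupings gave p = 0.0286, the smallest that 4 libraries against 4 allow. The adjusted p was 0.0807, 0.0593 and 0.0813 without control replicate 1, 3 or 4 and 0.0539 and 0.0701 without dcKO_Nex-Cre replicate 2 or 3, so that the call was kept in 3 of the 8 fits, with log2 fold changes of 0.70 to 0.87 in all of them. Without both libraries with *Xist* above 100 CPM the log2 fold change was 0.67 and the adjusted p 0.103, and without both libraries of high mitochondrial share they were 0.84 and 8.1e-05, in fits that called 0.246% and 11% of all genes. Within lane tag 2, where 1.48% of all genes were called, the log2 fold change was 0.85 with an adjusted p of 0.00287, and *Plagl1* was again the single imprinted gene called of 33.

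**Figure D3:**
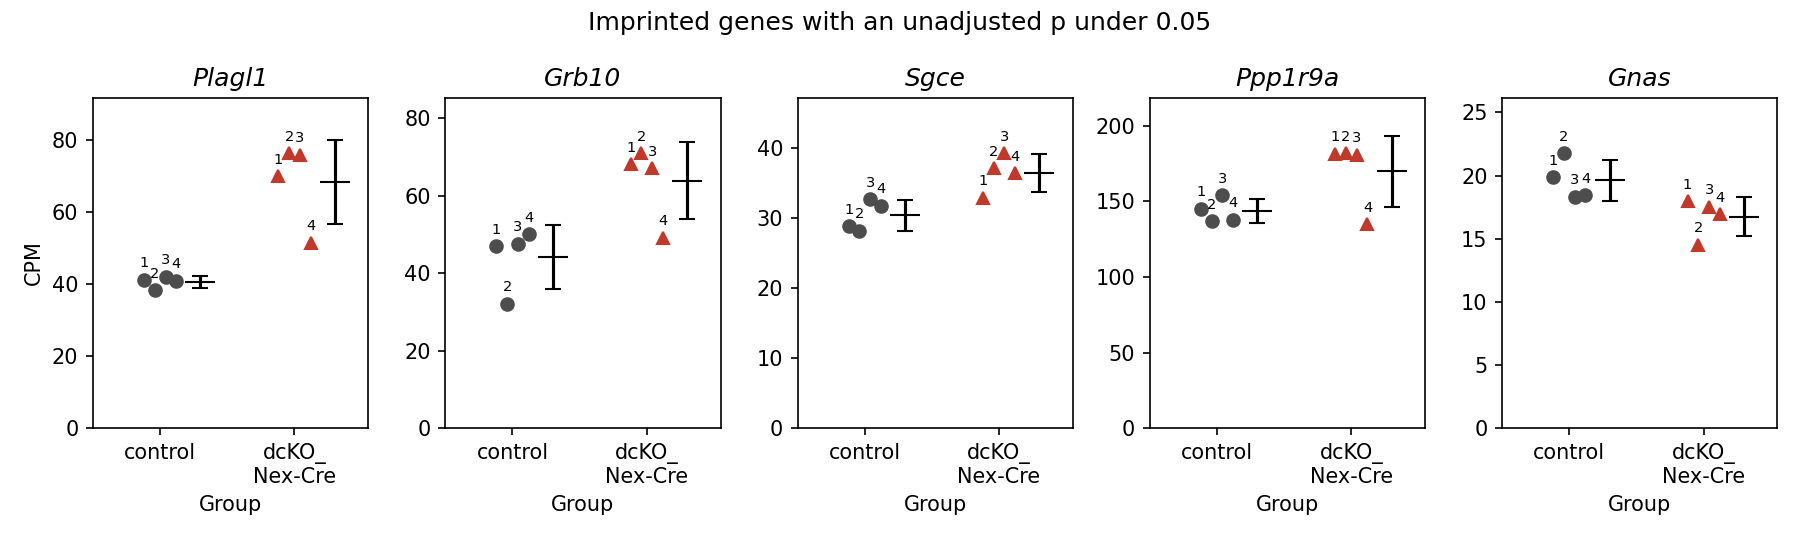
CPM of the 5 imprinted genes with an unadjusted p under 0.05 (y axis, from 0) by group (x axis). Points are libraries, numbered by replicate, and the bar beside each group is the mean with the SD over 4 libraries. dcKO_Nex-Cre replicate 4 lies apart from the other mutant libraries in *Plagl1*, *Grb10* and *Ppp1r9a*, but not in *Sgce* or *Gnas*.

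*Plagl1* lies on chromosome 10 of GRCm38 (mm10) from 13060504 to 13131694 on the plus strand. The annotation lists 25 transcripts with 11 distinct starts over 55860 bases, and the counts per gene do not separate them. Of the 11 other tested genes that start within 1000000 bases of *Plagl1*, 0 passed the adjusted threshold in edgeR (2 had an unadjusted p under 0.05), 0 of the 10 with an adjusted p passed it in DESeq2's Wald test and 0 separated the groups without overlap. Over all genes tested 0.884% were called and 8% did not overlap, so that 0 of 11 is near the background. An unadjusted p under 0.05 was found for 13.6% of all genes tested. The smallest adjusted p among them was 0.251, for *Hivep2*, a zinc finger gene with a log2 fold change of -0.34. *Utrn*, the utrophin gene on the other side of *Plagl1*, had a log2 fold change of 0.22 and an adjusted p of 0.298.

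**Figure D4:**
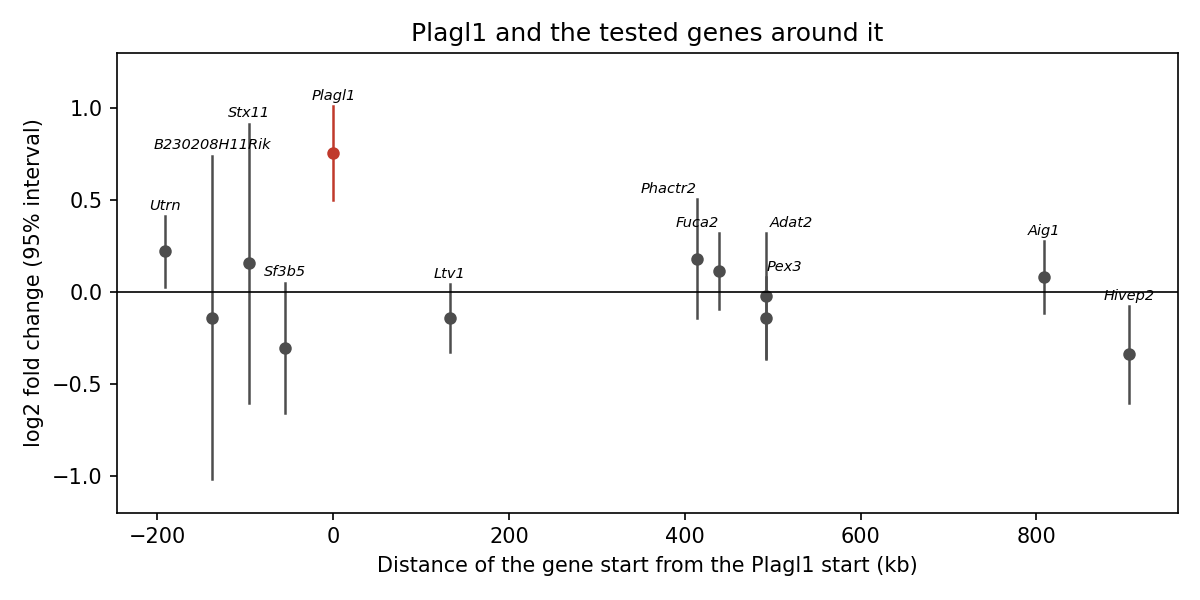
Log2 fold change with its 95% interval from edgeR (y axis) of *Plagl1* (red) and 11 tested genes around it (grey), by distance of the gene start from the *Plagl1* start in kb (x axis). *Plagl1* is at 0.75, while the neighbours lie between -0.34 and 0.22.

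Zac1 is known to act on other imprinted genes, among them *H19*, *Cdkn1c*, *Dlk1* and *Igf2*. None of these passed the test, and their log2 fold changes were -0.01 for *H19*, 0.004 for *Cdkn1c*, -0.02 for *Dlk1* and -0.07 for *Igf2*. The 95% intervals ran from -0.40 to 0.38 for *H19*, from -0.27 to 0.28 for *Cdkn1c*, from -0.55 to 0.52 for *Dlk1* and from -0.62 to 0.47 for *Igf2*, which do not exclude changes of moderate size.

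Promoter sequences are shown for the pair of imprinted genes with the smallest p, with capitals on the hexamer TGCCGC (or GCGGCA on the other strand), the motif bound by ZFP57, a zinc finger protein that keeps imprints methylated after fertilization. They are RefSeq windows on GRCm38.p6 from 250 bases before to 50 bases after an annotated start, at chr10:13090582-13090881 (plus strand) for *Plagl1* and chr11:12037371-12037670 (minus strand) for *Grb10*.
Plagl1: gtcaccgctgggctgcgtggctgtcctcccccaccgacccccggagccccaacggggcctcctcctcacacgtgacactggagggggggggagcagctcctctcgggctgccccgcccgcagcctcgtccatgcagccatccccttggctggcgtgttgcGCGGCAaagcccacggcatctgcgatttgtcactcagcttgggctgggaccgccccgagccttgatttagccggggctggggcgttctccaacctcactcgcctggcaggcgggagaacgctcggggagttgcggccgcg
Grb10: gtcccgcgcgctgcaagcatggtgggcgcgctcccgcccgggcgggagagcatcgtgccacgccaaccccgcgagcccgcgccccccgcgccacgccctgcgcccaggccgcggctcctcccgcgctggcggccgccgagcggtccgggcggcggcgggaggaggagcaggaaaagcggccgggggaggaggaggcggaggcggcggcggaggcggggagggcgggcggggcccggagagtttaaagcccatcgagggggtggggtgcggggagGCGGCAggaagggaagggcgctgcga
The *Plagl1* window holds 26 CpG dinucleotides and the *Grb10* window 45, and each holds the hexamer once. Of the listed *Grb10* windows the one with the hexamer was chosen, and the other (chr11:12027922-12028221) holds 0 hexamers and 9 CpG. Windows were listed for 28 of the 34 imprinted genes, 42 windows in all. The hexamer was found, on either strand, in 10 of these windows (23.8%), which belong to 9 genes, against 3813 of 32851 windows of all genes (11.6%). Windows of a gene can overlap, and 2 of the 10 are *Mest* windows that cover nearly the same bases. The median CpG number was 14 in the windows of imprinted genes and 7 in all windows. The hexamer itself holds a CpG, and its share was not compared between windows of equal CpG number. A match of letters is not a binding site, and methylation was not measured in these libraries.

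*Grb10* encodes an adaptor that dampens insulin and IGF1 receptor signalling, and uses the paternal allele in neurons and the maternal allele in most other cells. It was at 46.9, 32.1, 47.6 and 50.04 CPM in control replicates 1 to 4. It was at 68.1, 71.0, 67.1 and 49.1 CPM in dcKO_Nex-Cre replicates 1 to 4. The groups overlapped through dcKO_Nex-Cre replicate 4, which was at the level of the control, while control replicate 2 was the lowest of all. The group means were 44.2 ± 8.17 and 63.8 ± 9.95 CPM (SD, n = 4), with a log2 fold change of 0.53 (95% interval 0.20 to 0.86) and an adjusted p of 0.148 from edgeR, which does not pass the threshold. DESeq2's Wald test gave an adjusted p of 0.034. Without dcKO_Nex-Cre replicate 4, edgeR gave a log2 fold change of 0.64 and an adjusted p of 0.0202, in a fit where 7.73% of all genes were called. *Ddc*, the neighbour that makes dopamine and serotonin from their precursors, was at 1.53 to 3.57 CPM in the control and 1.35 to 3.88 CPM in the dcKO_Nex-Cre cortex, with an adjusted p of 0.97.

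The *Peg10-Sgce* cluster on chromosome 6 gave 2 of the 5 genes with an unadjusted p under 0.05, and its 3 genes had log2 fold changes of 0.24 to 0.35, none of which passed the adjusted threshold. *Sgce* encodes epsilon-sarcoglycan, a membrane protein whose paternal copy is mutated in myoclonus dystonia. It was at 28.8, 28.2, 32.7 and 31.8 CPM in control replicates 1 to 4 and at 32.9, 37.1, 39.3 and 36.4 CPM in dcKO_Nex-Cre replicates 1 to 4. The groups did not overlap but nearly touched, and dcKO_Nex-Cre replicate 4 lay with the other mutant libraries. The log2 fold change was 0.26 (95% interval 0.07 to 0.45), with an adjusted p of 0.213 from edgeR.

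*Ppp1r9a* encodes neurabin-I, which binds actin and protein phosphatase 1 at synapses. It was at 145, 137, 154 and 138 CPM in control replicates 1 to 4 and at 182, 182, 181 and 135 CPM in dcKO_Nex-Cre replicates 1 to 4. Replicates 1 to 3 of the mutant were nearly equal and above every control, and replicate 4 was below every control. The log2 fold change was 0.24 with an adjusted p of 0.321 from edgeR in all libraries, and 0.34 with an adjusted p of 0.0173 without dcKO_Nex-Cre replicate 4. *Asb4*, an ankyrin repeat gene of the same cluster, was at 2.11 to 4.05 CPM in the control and 2.69 to 5.52 CPM in the mutant (adjusted p of 0.59). The 6 tested imprinted genes of this region that are outside the list of 34 lay on both sides of 0 and none passed the adjusted threshold. Their log2 fold changes were 0.40 for *Peg10*, a retrotransposon-derived gene next to *Sgce*, 0.21 for *Casd1*, 0.12 for *Pon2*, -0.03 for *Dlx5*, -0.22 for *Calcr* and -0.71 for *Pon3*, the last at 1.49 and 0.915 CPM (adjusted p of 0.298 from edgeR).

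*Gnas* encodes the stimulatory G protein alpha subunit and overlapping imprinted transcripts. It was at 19.9, 21.8, 18.3 and 18.5 CPM in control replicates 1 to 4 and at 17.97, 14.5, 17.5 and 17.0 CPM in dcKO_Nex-Cre replicates 1 to 4. The groups did not overlap, but the highest mutant library was close to the lowest control. The log2 fold change was -0.23 (95% interval -0.45 to -0.0042), with an adjusted p of 0.357 from edgeR. The gene has 24 annotated transcripts with different imprinting, which the counts do not separate, and shares 988 exon bases with the antisense RNA *Nespas* and 1469 with *Gm20721* on the opposite strand. Whether the authors counted by strand is not given in the sources used here.

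The *Dlk1-Dio3* cluster on chromosome 12 holds maternally expressed long noncoding RNAs and paternally expressed protein genes, and its 5 listed genes had log2 fold changes of -0.61 to -0.02, with a median of -0.34, where 8004 of the 16287 genes tested were below 0. *Dlk1*, the nearest to 0, was at 0.12, 0.040, 0.049 and 0.11 without control replicate 2 or dcKO_Nex-Cre replicate 1, 3 or 4, and at 0.24 within lane tag 2. None passed the adjusted threshold or had an unadjusted p under 0.05. *Meg3*, a nuclear noncoding RNA, was at 910.3, 1674, 759 and 1085 CPM in control replicates 1 to 4 and at 608, 759.6, 892 and 1152 CPM in dcKO_Nex-Cre replicates 1 to 4. The 2 groups overlapped broadly, and control replicate 2 was far above the rest. The log2 fold change was -0.38 (95% interval -0.92 to 0.17, adjusted p of 0.519 from edgeR), and it was -0.10 without control replicate 2 and -0.55 without dcKO_Nex-Cre replicate 4.

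*Rian*, which hosts small nucleolar RNAs, was at 712, 776, 635 and 767 CPM in control replicates 1 to 4 and at 527, 552, 607 and 758 CPM in dcKO_Nex-Cre replicates 1 to 4. Replicates 1 to 3 of the mutant were below every control, and replicate 4 was among the controls. The log2 fold change was -0.24 (adjusted p of 0.398 from edgeR), and without dcKO_Nex-Cre replicate 4 it was -0.36 with an adjusted p of 0.0395. *Mirg*, which hosts microRNAs, had a mean of 10.6 CPM in the control and 8.41 CPM in the mutant (log2 fold change -0.34, adjusted p of 0.424). The paternally expressed *Dlk1*, a transmembrane relative of Notch ligands, was at 3.36 and 3.30 CPM. *Dio3*, the deiodinase that inactivates thyroid hormone, was at 2.15 to 3.28 CPM in the control and at 2.46, 2.64, 1.36 and 0.281 CPM in dcKO_Nex-Cre replicates 1 to 4, with 5 counts in replicate 4. Its log2 fold change was -0.61 (95% interval -1.55 to 0.33, adjusted p of 0.542), and -0.29 without that library.

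The library with the highest mitochondrial share, control replicate 2, had the highest *Meg3*, *Rian*, *Mirg* and *Kcnq1ot1* of the control, and dcKO_Nex-Cre replicate 4 had the highest of the mutant for all 4. *Malat1* and *Miat*, nuclear noncoding RNAs that are not imprinted and were chosen after their values were seen, were at 245 and 894 CPM in control replicate 2 and at 179 and 818 CPM in dcKO_Nex-Cre replicate 4, against 97.9 to 142 and 314 to 571 CPM in the other 6 libraries. The part of these library differences in the *Dlk1-Dio3* values was not tested. Without both libraries, *Meg3* had a log2 fold change of -0.28 (adjusted p of 0.348), *Mirg* -0.30 (0.2) and *Rian* -0.32 (0.0289), all by edgeR. Without both libraries with *Xist* above 100 CPM they were at -0.059 (0.961), -0.16 (0.836) and -0.16 (0.77).

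**Figure D5:**
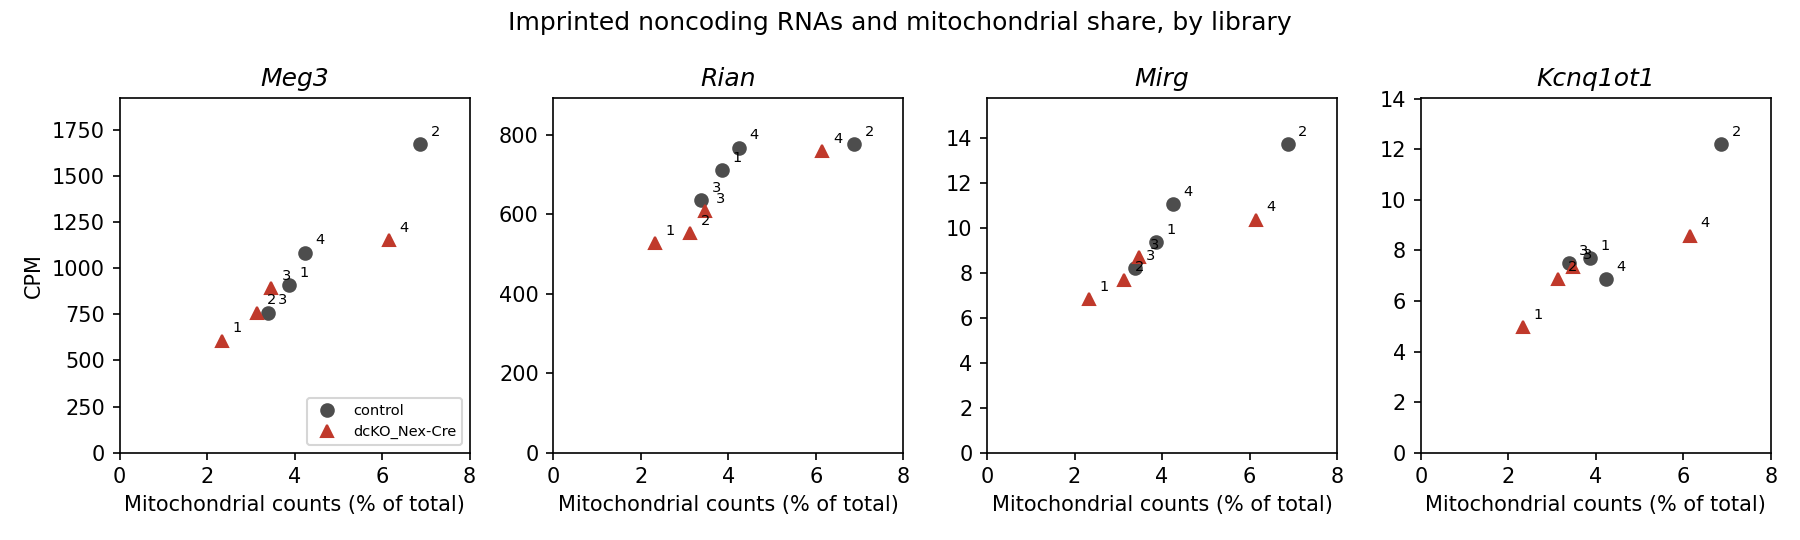
CPM of *Meg3*, *Rian*, *Mirg* and *Kcnq1ot1* (y axes, from 0) against the mitochondrial share of the counts in percent (x axis), with circles for control and triangles for dcKO_Nex-Cre libraries, numbered by replicate. In each group the library with the highest share, control 2 or dcKO_Nex-Cre 4, has the highest level of all 4 RNAs.

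The microRNAs of this region are shown because *Mirg*, *Rian* and *Meg3* are their host transcripts. RefSeq places 26 mature microRNAs from 14 hairpins in *Mirg*, 6 in introns of *Rian* and 3 in exons of *Meg3*. Of the 26 in *Mirg*, 8 lie in exons, and all but one pair have a seed of their own, 25 seeds in all. The mature sequences below carry the seed (bases 2 to 8) in capitals, and miR-453 and miR-496a-5p are the pair with a shared seed. miR-134 is known for its action on dendritic spines.
mmu-miR-134-5p: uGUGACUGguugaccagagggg
mmu-miR-485-3p: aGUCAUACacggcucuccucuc
mmu-miR-377-3p: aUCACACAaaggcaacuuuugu
mmu-miR-410-3p: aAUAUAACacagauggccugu
mmu-miR-453: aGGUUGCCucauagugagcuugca
mmu-miR-496a-5p: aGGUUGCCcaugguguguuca
mmu-miR-370-3p: gCCUGCUGggguggaaccuggu
mmu-miR-770-5p: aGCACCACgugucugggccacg
The first 6 are hosted by *Mirg*, miR-370-3p by *Rian* and miR-770-5p by *Meg3*. Mature microRNAs were not captured by these libraries, and the rows of the microRNA genes inside *Mirg* averaged at most 1.62 counts per library, so that only the host transcripts can be compared.

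In the *Igf2-H19* and *Kcnq1* region of chromosome 7 none of the 3 tested genes had an unadjusted p under 0.05. *Cdkn1c*, which encodes the cell cycle inhibitor p57, was at 30.3, 24.5, 35.3 and 23.5 CPM in control replicates 1 to 4 and at 29.4, 26.3, 28.7 and 29.7 CPM in dcKO_Nex-Cre replicates 1 to 4. The mutant libraries all lay inside the range of the control, and the means were 28.4 and 28.5 CPM (adjusted p of 0.991 from edgeR). *H19*, a noncoding RNA that is known from mesenchymal and fetal tissues, was at 19.6 and 19.3 CPM. *Kcnq1ot1*, the noncoding RNA that silences its neighbours on the paternal copy, was at 8.57 and 6.94 CPM (log2 fold change -0.31, adjusted p of 0.536). Its log2 fold change was -0.086 without control replicate 2, -0.17 without dcKO_Nex-Cre replicate 1, -0.098 without both libraries with *Xist* above 100 CPM and -0.53 within lane tag 2. *Igf2*, the growth factor gene beside *H19*, was at 50.8 and 48.3 CPM.

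The *Snrpn-Ube3a* cluster, the mouse counterpart of the Prader-Willi and Angelman syndrome region, had log2 fold changes of -0.12 to 0.07 and adjusted p-values of 0.625 to 0.987. *Ndn*, which encodes necdin, a protein of postmitotic neurons, was at 616, 559, 546 and 612 CPM in control replicates 1 to 4 and at 606, 497, 595 and 538 CPM in dcKO_Nex-Cre replicates 1 to 4. The groups overlapped, with a log2 fold change of -0.06 (95% interval -0.26 to 0.13). *Snrpn*, which encodes the neuronal splicing protein SmN, was at 227 and 230.4 CPM, the ubiquitin ligase regulator *Magel2* at 11.7 CPM in both groups and *Mkrn3*, a makorin ubiquitin ligase linked to the timing of puberty, at 25.9 and 24.0 CPM. *Ube3a*, the ubiquitin ligase lost in Angelman syndrome and expressed from the maternal copy in neurons, was at 91.3 and 95.6 CPM with a 95% interval of -0.07 to 0.21 on the log2 scale. Its antisense RNA *Snhg14* was at 111 and 95.4 CPM (adjusted p of 0.629) and shares 1803 exon bases with it, so that reads of these bases cannot be assigned if strand was ignored. *Snurf*, whose exons lie wholly within *Snrpn*, is listed at 0 in every library.

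The 3 genes of the *Peg3* cluster had log2 fold changes of 0.02 to 0.13. *Peg3*, a zinc finger gene linked to maternal behaviour, was at 126, 169, 117 and 134 CPM in control replicates 1 to 4 and at 135, 137, 146 and 137 CPM in dcKO_Nex-Cre replicates 1 to 4. The mutant libraries lay close together inside the control range, and the adjusted p was 0.944. The deubiquitinase gene *Usp29* was at 38.5 and 42.0 CPM and the maternally expressed zinc finger gene *Zim1* at 22.2 and 23.8 CPM. The spread of *Zim1* was wider in the mutant, from 13.3 CPM in replicate 4 to 32.8 CPM in replicate 1, than in the control, from 21.1 to 23.5 CPM.

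*Copg2*, a coatomer subunit gene of vesicle transport, was at 104, 83.5, 105 and 95.9 CPM in control replicates 1 to 4 and at 98.3, 109, 104 and 94.5 CPM in dcKO_Nex-Cre replicates 1 to 4. Its partner *Mest*, a paternally expressed hydrolase-like gene, was at 47.9 and 43.1 CPM (log2 fold change -0.15, adjusted p of 0.526), and the 2 genes share 912 exon bases on opposite strands. *Nnat*, which encodes the membrane proteolipid neuronatin, was at 1954, 2136, 1877 and 2026 CPM in control replicates 1 to 4 and at 1761, 1756, 1890.3 and 1724 CPM in dcKO_Nex-Cre replicates 1 to 4. One mutant library, replicate 3, was above the lowest control and the others were below all of them. The log2 fold change of *Nnat* was -0.16 (95% interval -0.34 to 0.0061) with an adjusted p of 0.381, while *Blcap*, the gene around it, was at 157 and 172 CPM with a log2 fold change of 0.13 (adjusted p of 0.528).

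*Peg13*, a paternally expressed noncoding RNA in an intron of *Trappc9*, was at 311, 285, 341 and 307 CPM in control replicates 1 to 4 and at 403, 351, 356 and 303 CPM in dcKO_Nex-Cre replicates 1 to 4. Replicates 1 to 3 of the mutant were above every control, and replicate 4 was within the control range (log2 fold change 0.18, adjusted p of 0.426). *Trappc9*, a vesicle tethering gene expressed mainly from the maternal copy in neurons, was at 60.7 and 63.2 CPM. *Inpp5f*, an inositol phosphatase gene with an imprinted brain transcript, was at 590.2 and 571 CPM, and *Impact*, an inhibitor of the translation kinase GCN2, at 46.3 and 43.5 CPM. *Zdbf2*, a zinc finger gene that acts in feeding of the newborn, was at 31.8 and 34.5 CPM with a log2 fold change of 0.12 (adjusted p of 0.748), and with 0.30 and an adjusted p of 0.0412 without both libraries of high mitochondrial share. *Airn*, the noncoding RNA antisense to *Igf2r*, was at 1.37 and 1.08 CPM, while *Igf2r* itself was at 46.0 and 47.3 CPM.

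The number of imprinted genes that passed moved with single libraries. Without dcKO_Nex-Cre replicate 4, *Plagl1*, *Grb10* and *Ppp1r9a* were called higher and *Rian* lower, 4 of 33, in a fit that called 7.73% of all genes. Without it and control replicate 2, *Zdbf2* was added, which made 5 of 33, where 11% of all genes were called. Without control replicate 1, 3 or 4 or dcKO_Nex-Cre replicate 2 or 3, edgeR called 0 of the 33. In those 5 fits 0.108% to 0.292% of all genes were called, and 3 to 7 of the 33 had an unadjusted p under 0.05, where 9.62% to 12.8% of all genes had one.

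Beyond the 34 genes, 53 other imprinted genes and 20 factors that set or keep imprints were examined. Of the other imprinted genes 43 were tested, and 0 passed the adjusted threshold in edgeR, with 3 higher and 2 lower at an unadjusted p under 0.05 (6.59% and 7.05% of all genes), while DESeq2's Wald test called 1, *Sfmbt2*. *Sfmbt2*, a polycomb-related gene, was at 3.96 and 6.02 CPM with no overlap (log2 fold change 0.61, adjusted p of 0.157 from edgeR). *Gab1*, a docking protein of growth factor receptors, was at 32.8 and 41.3 CPM (adjusted p of 0.282), and *Casd1*, a sialic acid acetyltransferase gene next to *Sgce*, at 79.4 and 91.6 CPM with no overlap (adjusted p of 0.283). Of the 18 tested imprint factors, 0 passed the adjusted threshold and 2 were higher at an unadjusted p under 0.05, again beside 6.59% of all genes. Their median log2 fold change was 0.13 with 15 above 0, beside a median of 0.0043 over all genes.

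The dioxygenase gene *Tet1* was at 44.7 and 54.5 CPM (adjusted p of 0.277), the corepressor gene *Trim28* at 340.2 and 399 CPM (0.342) and the histone methyltransferase gene *Ehmt1* at 142 and 159 CPM (0.381), by edgeR. These are the 3 smallest p-values of that list.

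The tissue label was compared with marker genes. All 10 markers of cortical projection neurons were detected, with sums of 1255 to 1364 CPM in the control and 1220 to 1405 CPM in the mutant, and 6 of the 10 had a log2 fold change below 0. *Emx1* fell (adjusted p of 0.0332 from edgeR), while *Fezf2*, at 63.0 and 43.0 CPM with no overlap (0.149), and *Slc17a7*, at 82.3 and 56.5 CPM (0.28), were lower at an unadjusted p under 0.05 only. Of the hypothalamus markers *Oxt* was at 0, and the list summed to at most 8.10 CPM. Choroid plexus markers ranged from 25.0 to 1359 CPM in the control and from 5.95 to 565 CPM in the mutant, and all 10 were detected. No gene was called in the lists of interneurons, astrocytes and radial glia, endothelium and pericytes, meninges and fibroblasts, or blood. In that order 3 of 10, 5 of 8, 8 of 10, 9 of 9 and 5 of 5 genes tested were above 0. Their smallest adjusted p was 0.0645 from edgeR, for *Sst* at 95.9 and 53.5 CPM. Of the astrocyte and radial glia list, *Fabp7* was lower, at 1584 and 1123 CPM with no overlap (adjusted p of 0.113 from edgeR). *Gfap* (0.256) and *Aldoc* (0.291) of that list were higher at an unadjusted p under 0.05 only. Genes of 4 other lists were called, where 0.884% of all genes tested were. The 8 oligodendrocyte lineage markers summed to 222 to 308 CPM in the control and 298 to 374 CPM in the mutant. *Cspg4* was called higher and 6 of 8 were above 0. The 8 thalamus markers summed to 123 to 140.2 CPM in the control and 96.4 to 120.4 CPM in the mutant. *Prkcd* was called lower, and 5 of the 7 thalamus markers tested were below 0. The 10 striatum markers summed to 115 to 175 CPM in the control and to 324 CPM in dcKO_Nex-Cre replicate 2, but to 104 to 144 CPM in the other mutant libraries, with *Ppp1r1b* called higher and 6 of 10 above 0. The 8 microglia markers summed to 105 to 121 CPM and 109 to 146 CPM, with 5 of 8 above 0. *C1qb* was called higher, whereas *P2ry12* was at 12.1 and 8.12 CPM with no overlap (log2 fold change -0.57, adjusted p of 0.0596 from edgeR). The lowest oligodendrocyte and microglia sums of the mutant were those of dcKO_Nex-Cre replicate 4. It also had the lowest mutant sums of the projection neuron, striatum, hypothalamus, thalamus and choroid plexus markers. Another mutant library was the lowest for the interneuron, meninges, endothelium, blood and astrocyte lists. The part of any of these cell types in the values of *Plagl1* and *Grb10* was not tested. In whole tissue a change in the number of cells of a type and a change in RNA per cell cannot be told apart.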

How the data were processed

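RNA-seq of the P1 cortex was analysed for 4 control and 4 dcKO_Nex-Cre samples. Whole-number counts, neither normalized nor filtered, were deposited for every Ensembl gene and library. Total RNA was turned into libraries with the Illumina TruSeq RNA kit, the submitters' processing notes name the build mm10, and the aligner, counting program and strand setting are not given in the sources used here. Of the 48709 genes, 48349 were matched by identifier to GENCODE M21 (GRCm38), and 30127 had a count. Library totals ranged from 17958641 to 35191912.

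Counts were analysed with edgeR 4.0.16 in R 4.3.3 (filterByExpr, TMM, robust quasi-likelihood F test, two-sided, no covariates), with Benjamini-Hochberg adjustment over the 16287 genes tested and a threshold of 0.05. CPM were taken on TMM-scaled library sizes, and CPM per kb divides them by the summed exon length. The biological coefficient of variation was 0.143. In simulated data of 16132 genes this test called 190 of 200 changed and 3 unchanged genes. How often it calls a gene at the log2 fold changes and library spread of the imprinted genes was not tested. No library was a copy of another of its group, since chi-square over degrees of freedom was 3.8 or more for each pair within a group. Pairs of a control and a mutant library were not compared. Python 3.11.15, pandas 2.3.3, scipy 1.17.1 and matplotlib 3.10.9 were used for the rest.

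The imprinted genes and the other lists were chosen with earlier results of these data known. Every library value is given for imprinted genes with an unadjusted p under 0.05, for those whose groups do not overlap and for the gene with the highest CPM per kb of each cluster with 2 or more listed genes, and other genes are given by means or ranges. *Rian* and *Dio3* are also given by library, and *Malat1*, *Miat*, *Peg10* and its imprinted neighbours are named, all chosen after their values were seen. Of the other imprinted genes and the imprint factors, the 3 with the smallest p are named. The alternatives were DESeq2 size factors, the Wald test of DESeq2 1.42.0, other filters, the replicate block, lane tag 2 alone and leaving out each library. Fits without the libraries of high mitochondrial share or high *Xist* were added after seeing the data.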

Additional observations from a re-analysis of the deposited data

Results flagged for a closer look

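In 74 groups of 4 libraries examined (CPM of each of the 33 tested imprinted genes, *Smarcc1* and *Smarcc2*, library totals and mitochondrial shares, per group), 6 held a library whose gap to the nearest other, divided by the range of the group, was above Dixon's 95% critical value. Chance gives about 1 in 20 groups, or 3.7 of 74. Control replicate 2 accounts for 4 of them. In that library *H19* was at 23.5 CPM, against 17.95 to 18.5 CPM in the other control libraries, and *Kcnq1ot1* at 12.2 CPM, against 6.87 to 7.69 CPM. *Snrpn* was at 205 CPM there, against 233 to 235 CPM, and *Mest* at 40.6 CPM, against 49.7 to 51.2 CPM. Control replicate 2 is also the library with the highest mitochondrial share and the highest *Xist*, and the part of either in these values was not tested.

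In dcKO_Nex-Cre replicate 4, *Ppp1r9a* was at 135 CPM, against 181 to 182 CPM in the rest of its group. In dcKO_Nex-Cre replicate 2, *Asb4* was at 5.52 CPM, against 2.69 to 3.01 CPM.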

How the results depend on the processing

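Of 511 values of the 32 imprinted genes other than *Plagl1* under 16 other settings, 461 kept their direction and side of the threshold, 42 in 11 genes changed sign and 8 newly passed. The call was lost under 6 of the 16 settings for *Plagl1*, 8 for *Smarcc1* and 0 for *Smarcc2*. Genes higher and lower numbered 61 and 83, but 215 and 279 under DESeq2's Wald test, 109 and 150 without a filter, 9 to 659 and 9 to 619 when 1 library was left out (659 and 619 without dcKO_Nex-Cre replicate 4), and 140 higher within lane tag 2. With the replicate block, which used replicate numbers that the labels do not tie to litters, they were 21 and 33, and *Plagl1* was kept at 0.74 (adjusted p of 0.0436, edgeR). Not every pair of same-numbered libraries deviated together (correlations 0.20, 0.037, 0.18 and -0.19), and of the mutant libraries only replicate 2 correlated best with the control of its own number. Without the high mitochondrial libraries they were 896 and 898, without the high *Xist* libraries 19 and 21. Imprinted genes numbered 1 higher and 0 lower, but 2 higher under DESeq2's Wald test, 0 to 3 higher and 0 to 1 lower when 1 library was left out, 4 and 1 without the high mitochondrial and 0 higher without the high *Xist* libraries. The other lists gave 0 higher, but 1 under DESeq2's Wald test and within lane tag 2, 0 to 6 without 1 library and 8 without the high mitochondrial libraries. The median of the imprinted genes was 0.098 within lane tag 2 and -0.052 to 0.087 without 1 library. *Plagl1* was 0.70 to 0.87 without 1 library and 0.67 without the high *Xist* libraries. *Smarcc1* was -0.54 with the replicate block (adjusted p of 0.0578), -0.46 within lane tag 2 (0.0752), and -0.63 to -0.47 without 1 library. Sign changes were within lane tag 2 for *H19* (0.18), *Cdkn1c* (-0.026), *Dlk1* (0.24), *Peg3* (-0.00071), *Ddc* (0.11) and *Inpp5f* (0.051), without the high mitochondrial libraries for *H19* (0.22), *Cdkn1c* (-0.075) and *Dlk1* (0.24), without the high *Xist* libraries for *Cdkn1c* (-0.027), *Snrpn* (-0.0020), *Copg2* (-0.038) and *Trappc9* (-0.027), without a filter for *H19* (0.0023) and with at least 10 counts per library for *Cdkn1c* (-0.0016). Leaving out 1 library gave -0.20 to 0.12 for *H19*, -0.077 to 0.13 for *Cdkn1c*, -0.29 to 0.12 for *Dlk1*, -0.045 to 0.15 for *Peg3*, -0.085 to 0.30 for *Zim1*, -0.015 to 0.050 for *Snrpn*, -0.13 to 0.26 for *Magel2*, -0.27 to 0.17 for *Ddc*, -0.052 to 0.18 for *Trappc9* and -0.083 to 0.0068 for *Inpp5f*. None of these genes passed the threshold, and the cause was not tested. Depth limits *Phlda2*, *Airn*, *Ddc*, *Dio3* and *Dlk1*, whose lowest counts per library were at most 42.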
